A study of Mus musculus with 5 samples.

Results

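The ephrin, Slit-Robo and netrin guidance genes were read in RNA pulled down with tagged ribosomes from dentate gyrus and cerebral cortex of adult mice. The set held 41 of the 32531 genes in the tables, taken by gene symbol alone: 9 EphA receptors, 5 EphB receptors, 5 ephrin-A and 3 ephrin-B ligands, 3 Slit ligands, 4 Robo receptors, 4 netrins, 2 netrin-G genes, 4 Unc5 receptors, and the receptor genes Dcc and Neo1. There were 3 libraries from dentate gyrus and 2 from cerebral cortex. Both tissues came from untreated adult Rbp4-Cre (KL100) mice crossed to Rosa26-LSL-EGFP/Rpl10a, written Rosa26-LSL-TRAP in the sample titles, in which Cre switches on an EGFP-tagged ribosomal protein, and all libraries are anti-EGFP immunopurified RNA. KL100 is a Cre line driven by Rbp4 regulatory sequence and is widely used for pyramidal neurons of the deep cortex, which the labels do not state. The labels give no sex and no exact age, and give no animal for a replicate; p-values therefore cover only the spread between libraries, which may be technical. No unpurified input was analysed here.

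Eph receptors are receptor tyrosine kinases on the cell surface that bind ephrins on a neighbouring cell. Ephrin-A ligands are held in the membrane by a lipid anchor and ephrin-B ligands span it, and both partners can signal into their own cell. Slits are secreted proteins that mostly repel growing axons through Robo receptors, and netrins attract axons through Dcc or repel them through Unc5 receptors. In the adult brain the same families act at synapses and spines, and hippocampal mossy fibres are a known site of Eph and ephrin action.

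Gene counts per library ran from 22600963 to 36837908. The tissue labels were checked on marker genes: all 7 markers of granule cells passed the test upwards in dentate gyrus, with a summed level of 3813 to 4279 CPM (counts per 1e6 gene counts, on scaled library sizes) in dentate gyrus and 171 to 221 CPM in cortex. The lists were chosen with earlier results of these data known, so this check is not independent of the data. Of 6 layer 5 markers, 5 were higher in cortex. Their summed level was 101, 275 and 132 CPM in dentate gyrus replicates 1, 2 and 3, and 1042 and 954 CPM in cortex replicates 1 and 2. A pair of libraries stood apart from their group. Cortex replicate 1 held 8 Purkinje and other cerebellar markers at a summed 602 CPM, against 45.7 CPM in cortex replicate 2 and 140 to 162 CPM in dentate gyrus, where the sum includes Calb1, a gene that granule cells also express. Gabra6 was at 0 in all dentate gyrus libraries. Dentate gyrus replicate 2 had the highest layer 5 sum of its group and held 13 hippocampal CA and subiculum markers at 812 CPM, against 567 and 558 CPM in replicates 1 and 3. Results that change without these libraries are given both ways. In such bulk RNA, fewer cells of a type and less RNA per cell cannot be told apart.

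The upstream sequences of 4 genes that the results turn on are shown because the receptors Epha7 and Epha4 were higher in dentate gyrus, and the ligand gene Efna5 and the receptor gene Ephb6 were higher in cortex. Each is the 250 bases before the annotated start in RefSeq on GRCm38.p6, 5′ to 3′ on the strand of the gene, with capitals marking GC boxes (GGGCGG or its reverse complement).
Epha7 (chr4:28812881-28813130, plus strand): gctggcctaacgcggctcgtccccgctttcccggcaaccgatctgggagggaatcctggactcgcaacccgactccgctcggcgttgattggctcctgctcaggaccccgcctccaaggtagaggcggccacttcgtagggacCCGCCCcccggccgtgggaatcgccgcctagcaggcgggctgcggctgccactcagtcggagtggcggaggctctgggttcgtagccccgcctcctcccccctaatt
Epha4 (chr1:77515089-77515338, minus strand): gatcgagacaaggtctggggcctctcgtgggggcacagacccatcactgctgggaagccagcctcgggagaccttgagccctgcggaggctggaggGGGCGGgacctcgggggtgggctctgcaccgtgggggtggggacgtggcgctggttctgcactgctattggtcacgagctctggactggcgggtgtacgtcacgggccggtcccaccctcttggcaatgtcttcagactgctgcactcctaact
Efna5 (chr17:62881318-62881567, minus strand): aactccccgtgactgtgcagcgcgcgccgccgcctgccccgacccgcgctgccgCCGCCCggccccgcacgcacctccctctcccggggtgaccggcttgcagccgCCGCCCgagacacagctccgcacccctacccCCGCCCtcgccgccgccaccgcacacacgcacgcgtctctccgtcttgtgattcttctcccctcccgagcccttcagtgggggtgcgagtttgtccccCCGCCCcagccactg
Ephb6 (chr6:41605261-41605510, plus strand): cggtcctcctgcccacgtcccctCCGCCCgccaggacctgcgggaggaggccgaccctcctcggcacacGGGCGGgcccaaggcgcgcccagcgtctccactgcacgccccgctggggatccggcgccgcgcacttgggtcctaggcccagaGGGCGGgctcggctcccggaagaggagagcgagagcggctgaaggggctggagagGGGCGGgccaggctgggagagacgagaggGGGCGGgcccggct
All were rich in G and C, from 66.0% in Epha4 to 76.8% in Ephb6. Epha7 and Epha4 had 1 GC box each, Efna5 had 4 and Ephb6 had 5. The Ephb6 window ends at 41605510, past the GENCODE start at 41605482, so its last GC box lies within the GENCODE gene. Upstream windows were matched for 36 of the 41 genes, and genes with several starts were taken at the start nearest to the GENCODE one. A GC box was present in 25 of these 36 windows and in 32.7% of all 32851 windows of this length. The median count of CG dinucleotides was 16.5 in the 36 windows and 6 in all windows. The E-box CANNTG, read on both strands, was present in 16 of the 36 windows and in 66.2% of all windows. Of the called genes described next, a GC box was in 5 of 6 matched windows of those higher in dentate gyrus and in 3 of 4 of those higher in cortex, and the E-box was in 1 of 6 and 3 of 4 of the same windows. These windows are too few to compare, and a match is not evidence of binding.

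The main question was which of these transcripts differed between dentate gyrus and cortex. By edgeR's quasi-likelihood test over 14136 genes, with Benjamini-Hochberg adjusted p under 0.05, 8 guidance genes were higher in dentate gyrus (Epha4, Epha7, Efnb3, Slit1, Slit3, Robo3, Unc5c and Ntng1) and 4 were higher in cortex (Efna5, Ephb3, Ephb6 and Robo1). These were 12 of 39 tested genes, 30.8%, beside 21.3% of all tested genes. By direction, the background was 10.5% of tested genes for dentate gyrus and 10.8% for cortex. The median log2 fold change of the 39 was 0.05, and 0.02 for all tested genes. The median size of the change, without its sign, was 1.30 on the log2 scale, and 0.66 for all tested genes. The libraries of the tissues did not overlap for 29 of the 39, beside 50.1% of all tested genes. Of the 29, 17 were higher and 12 lower in dentate gyrus, beside 25.1% higher and 25.0% lower of all tested genes. The median size and the overlap count include 6 genes, named below, that passed the filter on low counts through 1 tissue alone. Their differences were built into their entry, so these figures are partly fixed by the filter.

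Epha2 and Ephb4 were not tested because of low counts. A further 6 tested genes passed the filter on low counts through 1 tissue alone (Efna1, Efna4, Epha1, Epha8, Robo3 and Robo4), so a difference there was built into their entry. Without cortex replicate 2, the count higher in cortex was 2, because Robo1 and Ephb3 were not called. The count higher in dentate gyrus was 6 to 8 when libraries were left out.

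**Figure D1:**
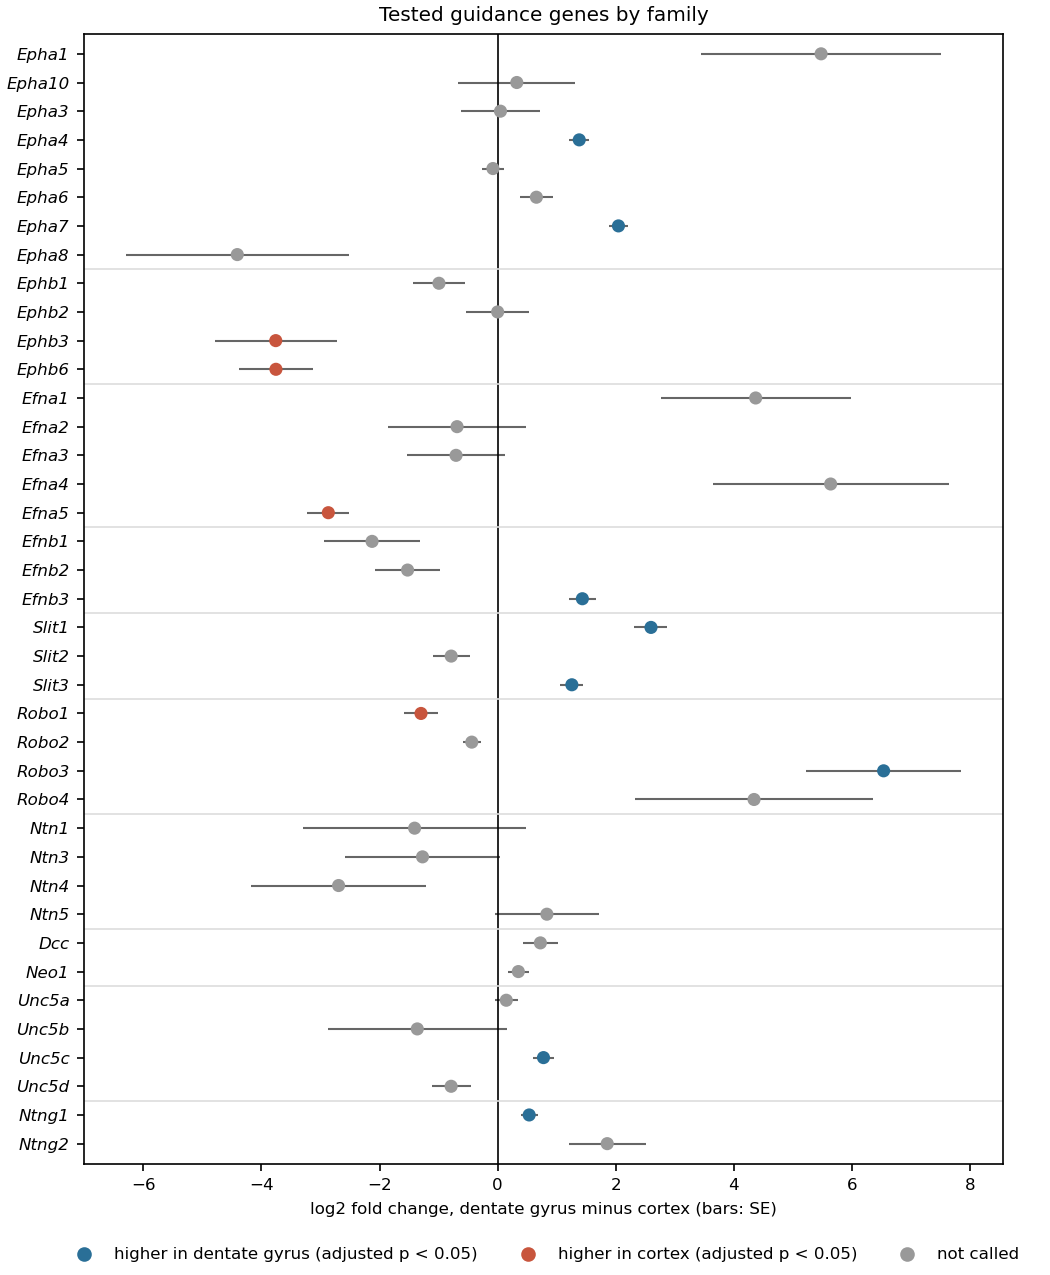
Log2 fold change (dentate gyrus minus cortex) of the 39 tested guidance genes, grouped by family, with bars for the standard error. Blue points are the 8 genes higher in dentate gyrus, red points the 4 higher in cortex and grey points those not called; the longest bars belong to genes with few counts in one tissue, such as Epha1, Efna4 and Robo4.

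EphA receptors were the most abundant receptors of the set and were higher in dentate gyrus as a sum, through Epha7 and Epha4. Epha7, a receptor for ephrin-A ligands (chromosome 4, 28813131 to 28967499, plus strand, GENCODE M21 on GRCm38), was at 685, 679 and 652 CPM in dentate gyrus replicates 1, 2 and 3, and at 132 and 194 CPM in cortex replicates 1 and 2. The dentate gyrus libraries lay close together and all were far above either cortex library. The log2 fold change was 2.05 (SE 0.17, adjusted p 3.07e-05), 4.13-fold. It remained between 1.79 and 2.31 over all 16 alternatives and was called in each.

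Epha4, a receptor that binds both ephrin-A and ephrin-B ligands (chromosome 1, 77367185 to 77515088, minus strand), stood at 347, 279 and 386 CPM in dentate gyrus, and at 121 and 139 CPM in cortex. Every dentate gyrus library was above both cortex libraries. It had a log2 fold change of 1.38 (SE 0.17, adjusted p 0.000355), and it was called without each library in turn.

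The other EphA receptors did not pass the test. Epha5, a receptor of forebrain neurons, was at 99.0, 107 and 82.1 CPM in dentate gyrus and at 110 and 93.0 CPM in cortex, with overlapping groups and a log2 fold change of -0.08 (SE 0.19). Epha6 was at 58.8, 69.2 and 81.6 CPM in dentate gyrus and at 56.3 and 32.3 CPM in cortex. It was called only without cortex replicate 1 (log2 1.12, adjusted p 0.0454) or with no filter (0.0402), over a range of adjusted p from 0.0402 to 1. Its exons overlap an antisense gene, Gm9017, whose reads may be shared.

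Epha3 differed between the cortex libraries: it was at 6.65, 12.7 and 9.36 CPM in dentate gyrus, against 15.7 and 2.83 CPM in cortex replicates 1 and 2, the first of which holds the cerebellar markers. Its log2 fold change was 0.05 with all libraries, 1.76 without cortex replicate 1 and -0.74 without cortex replicate 2, and it was not called in any of these. The part of the cerebellar markers in this value was not tested. Epha10, which lacks kinase activity, was also uneven, at 2.95, 0.577 and 9.28 CPM in dentate gyrus and 3.05 and 3.77 CPM in cortex. Epha1, Epha2 and Epha8, known mainly from epithelia or from development, were nearly absent. Epha1 had 71, 7 and 10 counts in dentate gyrus replicates 1, 2 and 3, and 1 and 0 in cortex. Epha8 had 2 counts over all dentate gyrus libraries and 23 and 16 in cortex, and Epha2 had 4 counts in dentate gyrus and 0 in cortex.

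Per kilobase of exon, Epha7 at 68.0 ± 1.77 CPM per kb (SD, n = 3) and Epha4 at 41.9 ± 6.77 CPM per kb were the highest and second highest of all 41 guidance genes in dentate gyrus. In cortex they stood at 16.5 ± 4.39 and 16.1 ± 1.58 CPM per kb (SD, n = 2), close to Unc5a at 16.3 ± 0.691 CPM per kb and Ntng1 at 19.0 ± 1.99 CPM per kb. Epha7, Epha4 and Unc5a did not differ beyond their spread in cortex. Both cortex values of Ntng1, 20.4 and 17.6 CPM per kb, lay above those of Unc5a (16.8 and 15.8) and Epha4 (15.0 and 17.2). They overlapped those of Epha7 (13.4 and 19.6). Summed over the EphA family, the level was 131, 124 and 137 CPM per kb in dentate gyrus, and 47.9 and 49.4 CPM per kb in cortex. Epha7 held 52.1 ± 3.55% of the EphA level in dentate gyrus and 33.8 ± 8.27% in cortex. Epha4 held 31.9 ± 3.72% in dentate gyrus and 33.0 ± 2.51% in cortex, an equal share within the spread.

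EphB receptors, which bind ephrin-B ligands, ran the other way: 2 of 4 tested were higher in cortex and none in dentate gyrus. Ephb6, a member without kinase activity (chromosome 6, 41605482 to 41620509, plus strand), was at 0.938, 3.42 and 1.02 CPM in dentate gyrus and at 19.2 and 28.8 CPM in cortex. The groups were far apart, and dentate gyrus replicate 2 was the highest of its group. The log2 fold change was -3.75 (SE 0.62, adjusted p 0.0021), a 13.5-fold higher level in cortex, and it was called in all 16 alternatives.

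Ephb3 (chromosome 16, 21204755 to 21223305, plus strand) had 2, 15 and 21 counts in dentate gyrus, or 0.0552, 0.666 and 0.822 CPM, and 251 and 163 counts in cortex, or 7.16 and 6.69 CPM. Its log2 fold change was -3.76 (SE 1.03, adjusted p 0.0281). The adjusted p was 0.121 without cortex replicate 1 and 0.102 without cortex replicate 2, in a range of 0.00177 to 0.172 over the alternatives, while the fold change remained between -4.89 and -3.23. Ephb1 did not pass, at 8.28, 7.51 and 4.78 CPM in dentate gyrus and 12.4 and 14.9 CPM in cortex (log2 -0.99, SE 0.44). Ephb2, known for its role in spine formation and in binding NMDA receptors, overlapped, at 4.19, 9.99 and 10.7 CPM in dentate gyrus and 9.38 and 7.18 CPM in cortex. Ephb4, known from veins, had 5 counts in dentate gyrus and 5 in cortex. The EphB sum was 1.79, 2.88 and 1.93 CPM per kb in dentate gyrus and 8.73 and 11.3 CPM per kb in cortex, far below the EphA sum in both tissues. Ephb6 held 19.8 ± 10.1% of it in dentate gyrus and 62.9 ± 6.22% in cortex, and 54.7% in cortex when the longest transcript was taken as the length.

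Among the ephrin-A ligands, Efna5 was lower in dentate gyrus and carried nearly all of the family's level in cortex. Efna5, a lipid-anchored ligand of EphA receptors (chromosome 17, 62604184 to 62881317, minus strand), stood at 21.3, 32.9 and 11.6 CPM in dentate gyrus and at 173 and 147 CPM in cortex. The dentate gyrus libraries differed among themselves by more than 2-fold, and all were below both cortex libraries. The log2 fold change was -2.87 (SE 0.35, adjusted p 0.00038), a 7.3-fold higher level in cortex, and it was called in all 16 alternatives. Per kilobase, Efna5 was the highest of all 41 genes in cortex at 39.7 ± 4.55 CPM per kb (SD, n = 2), and stood 13th in dentate gyrus at 5.44 ± 2.65 CPM per kb (SD, n = 3). It held 62.7 ± 21.6% of the ephrin-A level in dentate gyrus and 94.3 ± 2.39% in cortex.

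The remaining ephrin-A genes were low and none was called. Efna1 was at 0.993, 0.489 and 4.62 CPM in dentate gyrus and 0.143 and 0.041 CPM in cortex, so that dentate gyrus replicate 3 gave most of its level (log2 4.37, SE 1.61, adjusted p 0.0838). Efna4 had 11, 45 and 18 counts in dentate gyrus and 1 and 0 in cortex, a ratio of 52.2 with a 95% counting interval of 9.08 to 2089, and did not pass (adjusted p 0.0739). DESeq2 called both, at an adjusted p of 0.0172 for Efna1 and 0.0363 for Efna4, the lowest over their alternatives, which ran up to 0.315 and 0.452. Efna2 was between 0.386 and 1.87 CPM in dentate gyrus and at 0.998 and 2.17 CPM in cortex. Efna3 was between 1.05 and 3.17 CPM in dentate gyrus and at 2.97 and 4.51 CPM in cortex. Both overlapped between tissues. Efna3 and Efna4 each overlap an antisense gene. The ephrin-A sum was 6.64, 11.7 and 7.46 CPM per kb in dentate gyrus, and 44.7 and 39.3 CPM per kb in cortex, so that the EphA and ephrin-A sums lay in opposite directions between the tissues.

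Among the ephrin-B ligands, Efnb3 was higher in dentate gyrus while the values of Efnb1 and Efnb2 were lower there without passing the test. Efnb3, the ligand known from the spinal midline barrier to corticospinal axons (chromosome 11, 69554092 to 69560205, minus strand), stood at 64.1, 67.0 and 66.5 CPM in dentate gyrus and at 22.6 and 26.2 CPM in cortex. The replicates agreed closely in both tissues. This was a log2 fold change of 1.43 (SE 0.22, adjusted p 0.00143). Efnb1 was at 0.497, 1.6 and 3.56 CPM in dentate gyrus and 8.61 and 7.84 CPM in cortex (log2 -2.13, SE 0.81, adjusted p 0.0934). It was called with no filter (adjusted p 0.0440), by DESeq2 (0.0470), by limma voom (0.0210) and without dentate gyrus replicate 3 (0.0424). No other alternative called it, and the test above 2-fold gave an adjusted p of 0.366.

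Efnb2, which also marks arteries, was at 7.86, 31.3 and 7.87 CPM in dentate gyrus and 50.6 and 39.4 CPM in cortex (log2 -1.53, SE 0.55, adjusted p 0.0796). Dentate gyrus replicate 2 was well above the other libraries of its tissue and close to the cortex libraries. Without that library the log2 fold change was -2.53 and the adjusted p 0.000655. With all libraries it was called with no filter (4.44e-05), by DESeq2 (0.0215) and by limma voom (0.00337), but not with other scalings. The test above 2-fold gave an adjusted p of 0.464. In the same library the 9 vascular markers summed to 40.5 CPM, against 10.1 and 17.3 CPM in dentate gyrus replicates 1 and 3 and 15.5 and 24.6 CPM in cortex. Pecam1 went the other way, at 0.40 CPM in that library against 1.30 and 1.76 CPM in dentate gyrus replicates 1 and 3. Cldn5 had 0, 1 and 1 counts in dentate gyrus and 0 in cortex. The layer 5 sum was also the highest of its group in that library. The part of these cells in the Efnb2 value was not tested. Efnb3 held 88.4 ± 6.89% of the ephrin-B level in dentate gyrus and 46.2 ± 6.23% in cortex, where Efnb2 held 39.4 ± 5.71%. With the longest transcript as the length, Efnb2 was ahead of Efnb3 in cortex, at 47.8% and 39.3%.

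**Figure D2:**
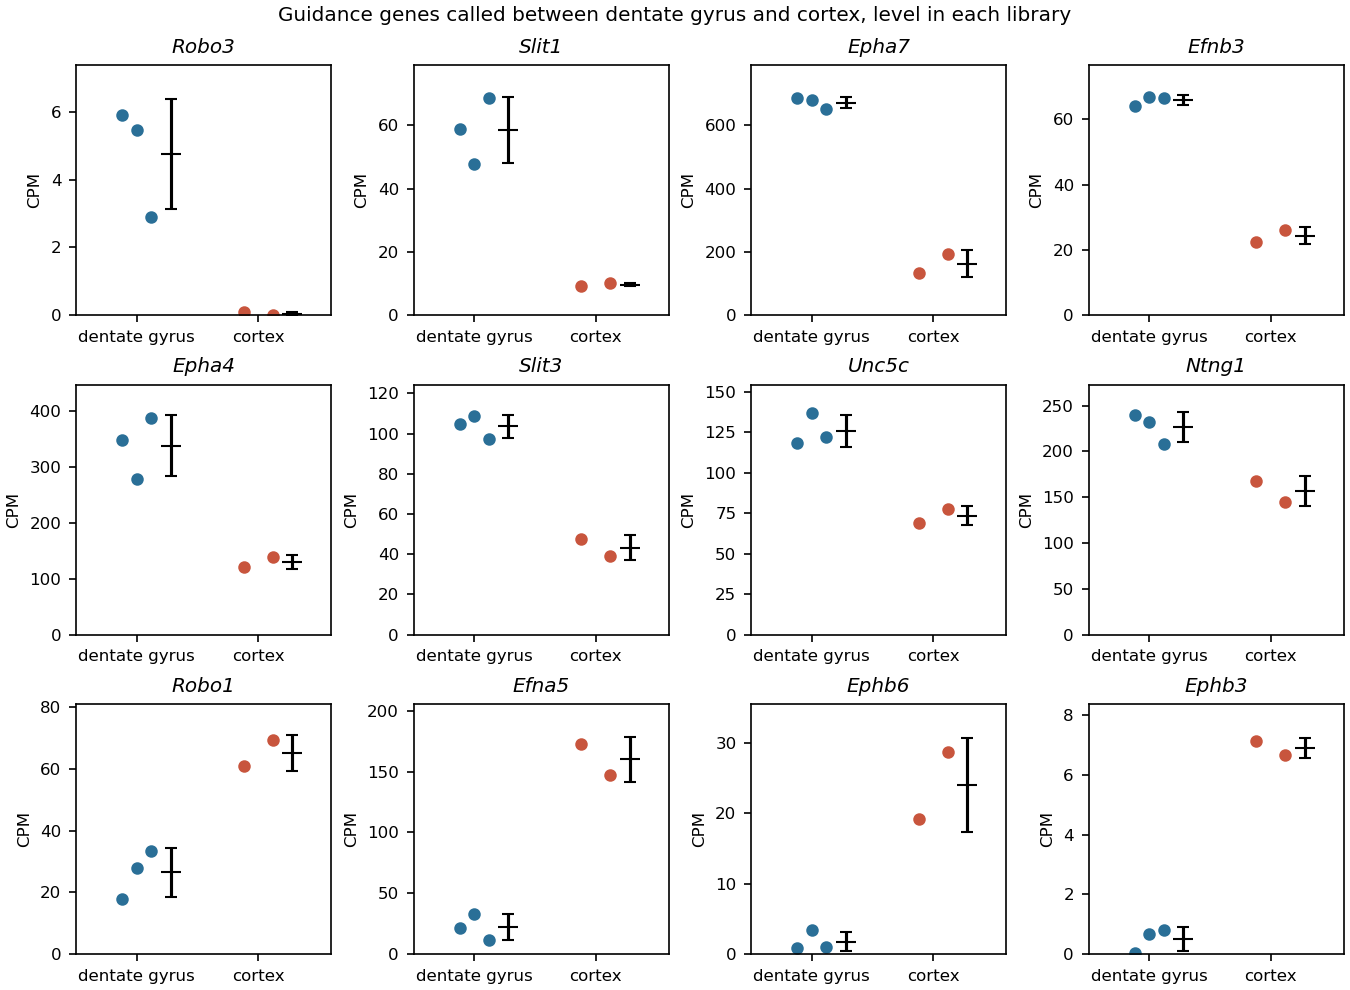
Level in counts per 1e6 (CPM) of the 12 called guidance genes in each library, with 3 dentate gyrus points in blue and 2 cortex points in red, and the mean with its SD in black. Each axis starts at 0, and in every panel the tissues do not overlap, from Robo3 at 2.9 to 5.91 CPM in dentate gyrus and at most 0.0855 CPM in cortex to Ephb3 at most 0.822 CPM in dentate gyrus and 6.69 to 7.16 CPM in cortex.

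Slit genes were higher in dentate gyrus for 2 of 3 members. Slit1, a secreted Robo ligand (chromosome 19, 41600257 to 41743665, minus strand), stood at 59.0, 47.8 and 68.5 CPM in dentate gyrus and at 9.24 and 10.1 CPM in cortex. The lowest dentate gyrus library was far above the higher cortex library. The log2 fold change was 2.60 (SE 0.28, adjusted p 0.000165), 6.05-fold, and it was called in all 16 alternatives.

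Slit3 (chromosome 11, 35121224 to 35708507, plus strand) was at 105, 109 and 97.3 CPM in dentate gyrus and 47.6 and 39.1 CPM in cortex, a log2 fold change of 1.26 (SE 0.19, adjusted p 0.00136). Slit2 did not pass, at 17.0, 28.4 and 34.5 CPM in dentate gyrus and 42.3 and 49.5 CPM in cortex (log2 -0.79, SE 0.32, adjusted p 0.110). It was called with no filter and by limma voom, in a range of 0.0431 to 1. The 3 ligands thus did not shift together, and the fitted changes of Slit1 and Slit2 had opposite signs. The Slit sum was 27.9, 27.1 and 29.0 CPM per kb in dentate gyrus, and 11.1 and 10.1 CPM per kb in cortex. Slit3 was the leading member in both tissues, at 61.1 ± 5.41% in dentate gyrus and 67.4 ± 5.0% in cortex. Slit1 held 35.2 ± 5.11% in dentate gyrus and 15.5 ± 1.98% in cortex.

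Of the Robo receptors, Robo1 was lower and Robo3 higher in dentate gyrus. Robo1, a Slit receptor (chromosome 16, 72308306 to 73046095, plus strand), was at 17.9, 28.1 and 33.6 CPM in dentate gyrus and at 61.0 and 69.3 CPM in cortex. It had a log2 fold change of -1.30 (SE 0.29, adjusted p 0.0101). Without cortex replicate 2 the adjusted p was 0.0638, in a range of 3.08e-05 to 0.386 over the alternatives. Robo2, the other main Slit receptor and the leading Robo gene per kilobase in both tissues, was at 116, 139 and 118 CPM in dentate gyrus and 174 and 163 CPM in cortex (log2 -0.44, SE 0.15, adjusted p 0.0726). DESeq2 (0.0198) and limma voom (0.0429) called it higher in cortex, and no other alternative did, with a highest adjusted p of 1.

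Robo3, which in mammals binds Nell2 rather than Slits with high affinity and is known from commissural axons (chromosome 9, 37415669 to 37433246, minus strand), was low in dentate gyrus and nearly absent from cortex. It had 214, 123 and 74 counts there and 3 and 0 counts in cortex, or 5.91, 5.46 and 2.9 CPM in dentate gyrus and 0.0855 and 0 CPM in cortex. The ratio of summed counts was 96.6, with an exact 95% interval of 32.8 to 470 that covers counting error only. The edgeR adjusted p was 0.0062, and it was called in all 16 alternatives. No cortex library passed the filter on low counts for this gene. Robo3 thus entered the test through dentate gyrus alone, and a difference was built into its entry. Its neighbour Robo4, known from endothelium, lies tail to tail with it, 0.554 kb away on the other strand, and had 12, 13 and 12 counts in dentate gyrus and 0 and 1 in cortex, without passing (adjusted p 0.165). Robo2 held 75.5 ± 2.1% of the Robo level in dentate gyrus and 71.5 ± 2.75% in cortex. The Robo sum was 8.84, 10.8 and 9.48 CPM per kb in dentate gyrus and 13.9 and 13.8 CPM per kb in cortex, the reverse order of the Slit sum.

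Secreted netrins were low in both tissues. Ntn1, the classical Dcc ligand, had 2, 11 and 5 counts in dentate gyrus and 0 and 32 in cortex. Ntn3 was between 0.138 and 1.51 CPM in dentate gyrus and at 0.684 and 2.91 CPM in cortex, and its exons overlap Tbc1d24. Ntn4, a laminin-related matrix protein, was at most 0.587 CPM in dentate gyrus and at 1.94 and 2.09 CPM in cortex. Ntn5 was at 2.01, 3.42 and 2.98 CPM in dentate gyrus and 1.82 and 1.31 CPM in cortex. None of the 4 was called, and their sum was at most 1.92 CPM per kb in dentate gyrus and 1.93 CPM per kb in cortex.

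Netrin receptors, in contrast, were measured at substantial levels. Neo1, which binds netrins and repulsive guidance molecules, was at 143, 139 and 113 CPM in dentate gyrus and 94.7 and 112 CPM in cortex (log2 0.35, SE 0.18, adjusted p 0.205). Dcc, the attractive netrin receptor, was at 32.8, 43.1 and 31.8 CPM in dentate gyrus and 17.6 and 25.9 CPM in cortex (log2 0.72, SE 0.30, adjusted p 0.119). Their groups did not overlap, but neither passed. Unc5c, a repulsive netrin receptor (chromosome 3, 141465216 to 141834924, plus strand), was higher in dentate gyrus, at 119, 137 and 122 CPM there and 69.3 and 77.8 CPM in cortex (log2 0.78, SE 0.17, adjusted p 0.0102). Without cortex replicate 1 the adjusted p was 0.0735, in a range of 8.38e-05 to 1 over the alternatives. Its exons overlap an antisense gene, Gm15688.

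Unc5a, the leading Unc5 gene per kilobase, did not differ beyond its spread, at 79.9, 80.4 and 65.2 CPM in dentate gyrus and 70.0 and 65.9 CPM in cortex (log2 0.15, SE 0.19). Unc5d, a receptor for Flrt2 as well as netrin, was at 45.8, 72.9 and 28.4 CPM in dentate gyrus and 82.4 and 86.9 CPM in cortex (log2 -0.79, SE 0.33, adjusted p 0.127). Without dentate gyrus replicate 2, its highest library in that tissue, it was called higher in cortex (log2 -1.20, adjusted p 0.0125). It was also called with no filter and by limma voom, and in no other alternative. Unc5b was low and uneven, at 0.0276, 0.577 and 1.68 CPM in dentate gyrus and 3.54 and 0.369 CPM in cortex replicates 1 and 2. The Unc5 sum overlapped between tissues, at 30.3, 34.5 and 25.4 CPM per kb in dentate gyrus and 29.9 and 29.4 CPM per kb in cortex. Unc5c held 22.1 ± 2.63% in dentate gyrus and 13.0 ± 1.23% in cortex, and Unc5d held 17.2 ± 5.45% in dentate gyrus and 31.0 ± 1.58% in cortex. With the longest transcript as the length, Unc5c held 35.2% in dentate gyrus and 22.3% in cortex.

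Netrin-G genes encode lipid-anchored relatives of netrins that bind partners of the Lrrc4 family at synapses and not Dcc or Unc5. Ntng1 (chromosome 3, 109780040 to 110144011, minus strand) stood at 239, 232 and 208 CPM in dentate gyrus and 168 and 145 CPM in cortex, a log2 fold change of 0.53 (SE 0.15, adjusted p 0.0269). This was the smallest change among the 12 called genes. Its adjusted p was above 0.05 in 6 of 16 alternatives, among them 0.0676, 0.0673, 0.0514 and 0.220 without dentate gyrus replicates 1 and 2 and without cortex replicates 1 and 2, in a range of 0.00386 to 1. Ntng2 was at 8.55, 6.44 and 19.4 CPM in dentate gyrus and 4.31 and 2.01 CPM in cortex (log2 1.86, SE 0.65, adjusted p 0.0725). It was called with no filter, by DESeq2 and without dentate gyrus replicate 2 (adjusted p 0.0485), and in no other alternative. Ntng1 held 90.5 ± 5.82% of the netrin-G level in dentate gyrus and 96.1 ± 1.58% in cortex.

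**Figure D3:**
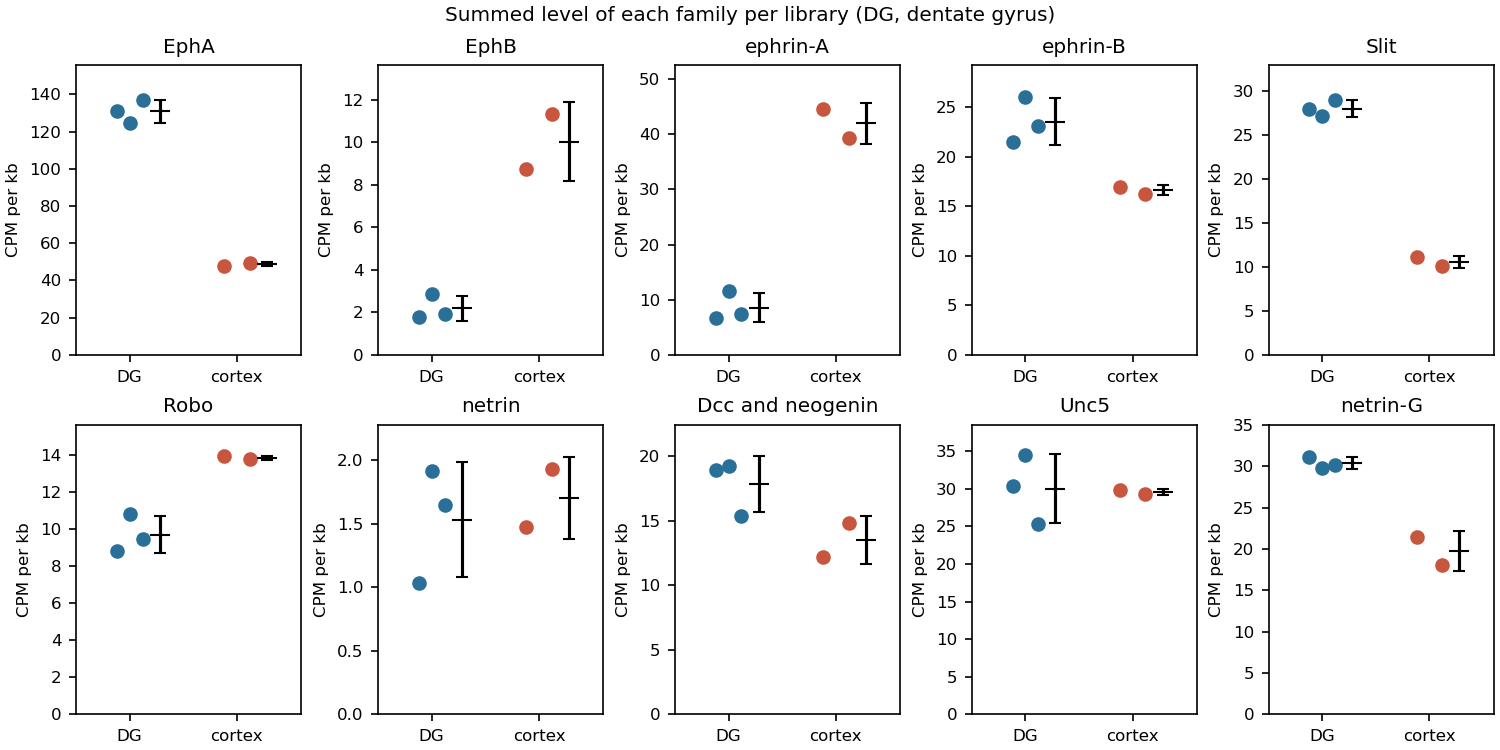
Summed level of each family in CPM per kb of exon in each library, with 3 dentate gyrus points in blue, 2 cortex points in red, and the mean with its SD in black. The EphA, ephrin-B, Slit, netrin-G and Dcc with neogenin sums were higher in every dentate gyrus library, at 124 to 137 CPM per kb against 47.9 and 49.4 CPM per kb for EphA. The EphB, ephrin-A and Robo sums were lower there, and the netrin and Unc5 sums overlapped. Without scaling by length the ephrin-B sums also overlapped, at 72.5, 99.9 and 77.9 CPM in dentate gyrus and 81.8 and 73.4 CPM in cortex.

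**Figure D4:**
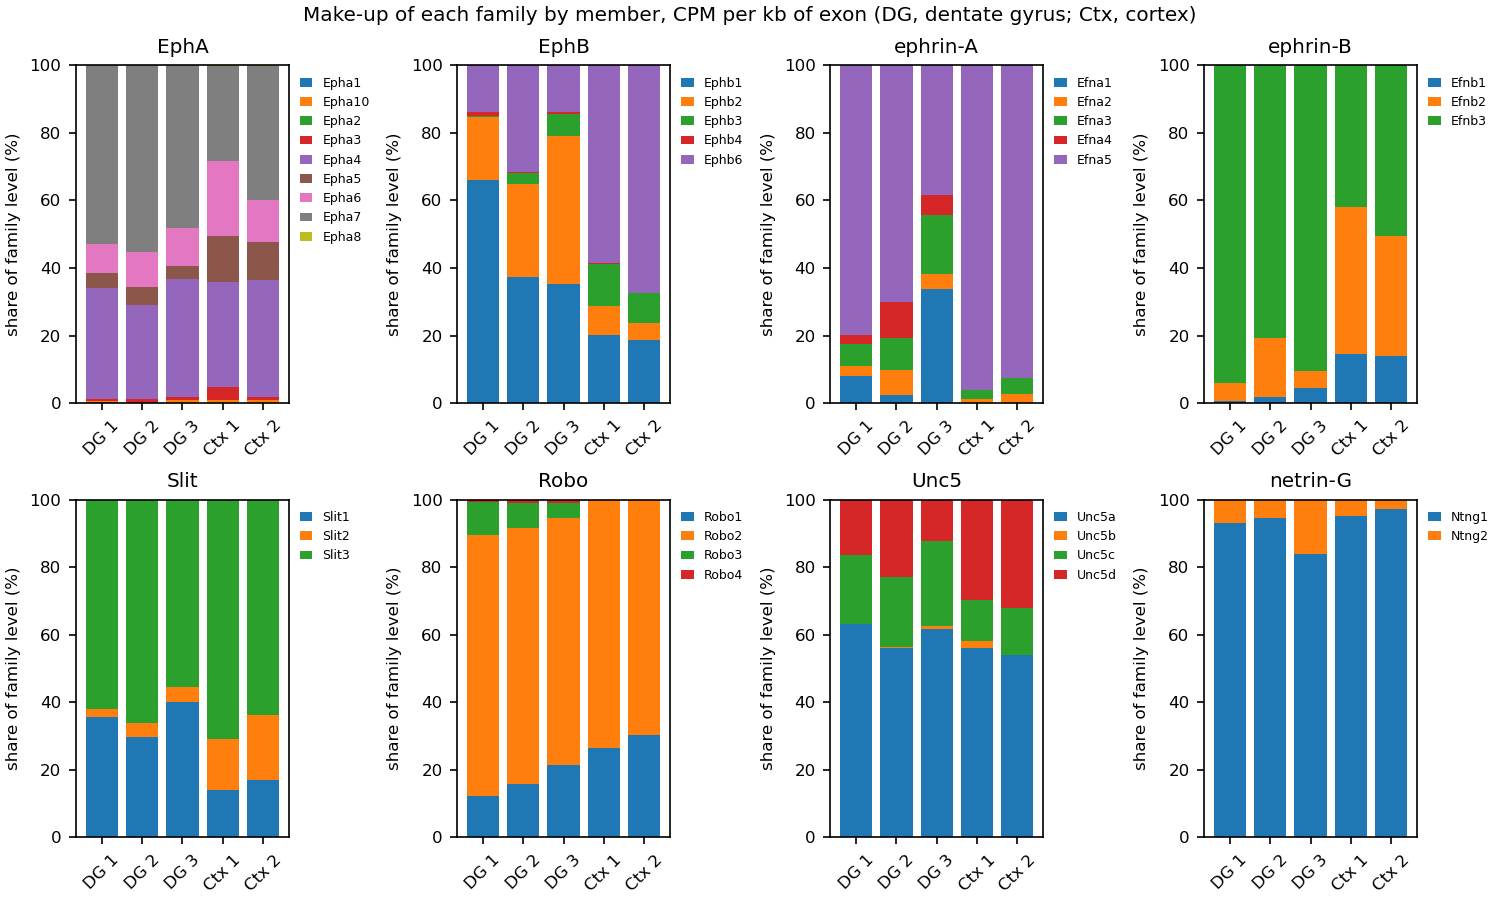
Share of each member in the summed level of its family (percent of CPM per kb of exon) in the 3 dentate gyrus libraries (DG) and the 2 cortex libraries (Ctx). Efna5 held 38.4% to 79.7% of the ephrin-A level in dentate gyrus libraries and 92.6% to 96.0% in cortex libraries, and Ephb6 and Efnb2 also took larger shares in cortex, with Efnb3 and Slit1 taking larger shares in dentate gyrus.

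Genes that act with these receptors were read from 6 lists of signalling partners, 72 genes of which 69 were tested. Of these, 14 had higher levels in dentate gyrus and 13 in cortex, 39.1% in all beside 21.3% of all tested genes. The lists were chosen with earlier results of these data known, so this share is not independent of the data. Among 22 Eph forward signalling partners, dentate gyrus was higher for 5 and cortex for 3, and 4 were called in all without cortex replicate 1. Tiam1, an activator of Rac, was at 641, 544 and 570 CPM in dentate gyrus and 121 and 117 CPM in cortex (log2 2.30, SE 0.13, adjusted p 4.46e-06). Vav3, another such activator, was at 38.8, 27.7 and 19.7 CPM in dentate gyrus and 5.45 and 3.69 CPM in cortex. Chn1, the chimaerin that inactivates Rac downstream of Epha4, had a log2 fold change of 0.51 (SE 0.08), and the Ras inactivator Rasa1 one of 1.05 (SE 0.19), both higher in dentate gyrus.

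Of 7 partners of ephrin reverse signalling and cleavage, dentate gyrus was higher for 2 and cortex for 1. Sdcbp, a scaffold that binds ephrin-B tails, was at 418, 393 and 373 CPM in dentate gyrus and 222 and 210 CPM in cortex. Grip2, another scaffold of this kind, had 0, 2 and 2 counts in dentate gyrus and 254 in each cortex library (adjusted p 0.00113). No dentate gyrus library passed the filter on low counts for Grip2. It thus entered the test through cortex alone, and a difference was built into its entry. Adam10, a protease that cleaves ephrins, did not pass (adjusted p 0.219).

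Of 13 Slit-Robo partners, dentate gyrus was higher for 3 and cortex for 3, and 3 in all without cortex replicate 1 or with a replicate block. Pak1, a kinase activated by Rac and Cdc42, was at 850, 795 and 800 CPM in dentate gyrus and 2731 and 2480 CPM in cortex (log2 -1.68, SE 0.09, adjusted p 2.67e-06). The Slit-Robo GTPase-activating protein genes differed in direction: Srgap1 was at 9.91, 13.9 and 18.0 CPM in dentate gyrus and 52.2 and 37.7 CPM in cortex, whereas Srgap3 was higher in dentate gyrus (log2 0.42, SE 0.09). Srgap2 was also higher in cortex (log2 -1.01, SE 0.30, edgeR adjusted p 0.0370). That call did not hold without dentate gyrus replicate 2, dentate gyrus replicate 3 or cortex replicate 1. Arhgap39, whose Drosophila counterpart binds Robo and inactivates Rac, was also higher in dentate gyrus (0.94, SE 0.20). The Srgap1 call did not hold without cortex replicate 1, and the Srgap3 and Arhgap39 calls did not hold without cortex replicate 2.

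Of 23 tested netrin, Dcc and Unc5 partners, dentate gyrus was higher for 4 and cortex for 4. Flrt1, an adhesion protein related to the Unc5 ligands, was at 8.94, 20.7 and 10.1 CPM in dentate gyrus and 173 and 138 CPM in cortex (log2 -3.56, SE 0.35, adjusted p 8.56e-05). Dapk1, a kinase that acts with Unc5 receptors in cell death, was at 257, 251 and 214 CPM in dentate gyrus and 96.6 and 85.9 CPM in cortex. Rac1, the small GTPase itself, was higher in dentate gyrus (log2 0.74, SE 0.11), and the phosphatidylinositol transfer protein gene Pitpna was higher in cortex (-0.82, SE 0.12). Of the neogenin ligands, Rgma was at 0.166, 1.69 and 0.822 CPM in dentate gyrus and 10.3 and 12.3 CPM in cortex. Its adjusted p was 0.013 and did not pass without cortex replicate 2. Rgmb did not pass (log2 -0.58, SE 0.42). The netrin-G1 ligand gene Lrrc4c was lower in dentate gyrus, at 452, 432 and 417 CPM there and 690 and 732 CPM in cortex (log2 -0.71, SE 0.11, adjusted p 0.00108), while Ntng1 itself was higher. Lrrc4, the ligand of netrin-G2, had a log2 fold change of 0.47 (SE 0.18) and did not pass.

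GABAergic interneuron markers also differed between the tissues, in both directions. Dentate gyrus was higher for 2 of 8, Gad1 and Adarb2, and cortex for 4, Gad2, Sst, Pvalb and Vip. The list summed to 254 to 286 CPM in dentate gyrus and 890 to 899 CPM in cortex. Sst made up most of the cortex sum, at 72.4 to 113 CPM in dentate gyrus and 700 and 641 CPM in cortex. None of the 8 was at 0 over a tissue. Vip passed the filter on low counts through cortex alone, so a difference was built into its entry. Of 5 layer 2 to 4 markers, dentate gyrus was higher for Rasgrf2 and cortex for Rorb, Cux2 and Lamp5, and the list summed to 452 to 460 CPM in dentate gyrus and 714 to 747 CPM in cortex. Rasgrf2 made up most of the dentate gyrus sum, at 322 to 330 CPM there. Of 5 layer 6 markers, dentate gyrus was higher for Tle4 and cortex for Foxp2 and Syt6. The list summed to 124 to 200.5 CPM in dentate gyrus and 107.5 to 107.6 CPM in cortex. Tle4 made up most of these sums, at 199, 118 and 122 CPM in dentate gyrus and 58.7 and 62.6 CPM in cortex. Foxp2, Syt6, Ntsr1 and Ctgf were lower in every dentate gyrus library than in cortex, with Ntsr1 and Ctgf at 0 in at least 1 dentate gyrus library. Of 8 astrocyte markers, dentate gyrus was higher for Slc4a4 and cortex for Slc1a2, Aldoc and Aldh1l1, and the sums overlapped at 969 to 1248 CPM in dentate gyrus and 1180 to 1208 CPM in cortex. Aldh1l1, like Vip, passed the filter through cortex alone. Of 5 thalamic markers, 1 was called, Rora, at 74.4 to 92.6 CPM in dentate gyrus and 527 and 436 CPM in cortex, which made up most of the list's sum of 77.2 to 119 CPM in dentate gyrus and 473 to 571 CPM in cortex. Tcf7l2, Prkcd and Lef1 had positive log2 fold changes of 0.58, 0.51 and 1.82 that did not pass. The part of these markers in the guidance genes higher in cortex was not tested.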

How the data were processed

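RNA from anti-EGFP immunopurified polysomes was measured in 3 dentate gyrus and 2 cortex libraries. The authors deposited unnormalized read counts for each gene symbol, made with STAR 2.0.0e and HTSeq on mm10, per the submitters' processing notes. The HTSeq version, annotation, strand setting and overlap handling are not stated in the labels or notes, so genes with an antisense neighbour may share reads, and reads matching several places were set aside. Classes naming no gene were left out (no feature 10.6% to 14.8%, not unique 25.0% to 31.8%, ambiguous 1.81% to 1.87% of reads). The floor of 3 counts is 0.0814 to 0.133 CPM in a library; floors and intervals cover counting error only.

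Counts were compared with edgeR 4.0.16 in R 4.3.3 on tissue alone (trimmed mean of M values scaling, filterByExpr, quasi-likelihood F test, Benjamini-Hochberg over 14136 genes, called under 0.05). Fold changes are dentate gyrus minus cortex; the SE is the fold change divided by the root of F. CPM per kb uses the union of exons in GENCODE M21. Alternatives were other scalings and filters, a replicate block, robust dispersion, DESeq2 1.42.0, limma 3.58.1 voom, each library left out, and a test above 2-fold. The procedure was tested on simulated data. Members, lists and tests were chosen with earlier results of these data known. Every called gene and each family's leading gene was to be given in full, the others by level, and up to 4 genes of each partner list by smallest adjusted p. Srgap2 is given besides, with the other genes of its family. Replicates of a tissue differed by more than counting noise (chi-square per degree of freedom 41.3 to 57.9). Proteins are not shown here. The values of 1 partner gene are not reported here.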

Additional observations from a re-analysis of the deposited data

How the results depend on the processing

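Of the 12 called guidance genes, 5 (Epha7, Slit1, Robo3, Efna5 and Ephb6) were called in all 16 alternatives and none changed sign. Of these, Robo3 had passed the filter on low counts through dentate gyrus alone. Of 27 tested genes not called, 9 were called in at least 1 alternative. The number of all genes called was 3009, and 1886 to 2775 when single libraries were left out, 1578 with both unusual libraries (cortex replicate 1, dentate gyrus replicate 2) left out, and 842 for a change above 2-fold. Guidance genes higher in dentate gyrus numbered 10 with no filter, 11 by DESeq2, 8 by limma voom, 3 for a change above 2-fold, and 7 to 8 with single libraries left out. Those higher in cortex numbered 8 with no filter, 7 by DESeq2, 9 by limma voom, 2 for a change above 2-fold, and 2 to 6 with single libraries left out. With no filter, 41 genes entered.

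Partner genes called above 2-fold numbered 3 for Eph forward signalling, 1 for ephrin reverse signalling, 1 for Slit-Robo, 2 for netrin, and 0 each for neogenin and netrin-G ligands. With both unusual libraries left out, they numbered 4 for Eph forward signalling and 2 for Slit-Robo. With no filter, 2 neogenin ligands and 2 netrin-G ligands were called. With single libraries left out, 4 to 9 Eph forward and 3 to 6 Slit-Robo partners were called.

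Replicate numbers are shared between tissues for 2 pairs only, and same-numbered libraries did not deviate together (r -0.004 and -0.0163). With a replicate block 2237 genes were called, the guidance genes called were again 8 for dentate gyrus and 4 for cortex, and 3 Slit-Robo partners were called.

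The 7 genes whose log2 fold change turned were not called in any setting. With single libraries left out, Epha10 ran from -0.95 to 0.83, Epha3 from -0.74 to 1.76, Epha5 from -0.23 to 0.0501, Ephb2 from -0.24 to 0.30, Ntn1 from -2.40 to 5.88, Ntn3 from -2.31 to 0.0818 and Unc5b from -2.74 to 1.04. With the replicate block, Epha10 was at -1.32, Epha5 at 0.0243 and Ntn1 at 0.0509. By limma voom, Epha10 was at -0.31 and Ntn1 at 0.71. With no filter Ephb2 was at 0.00714. With both unusual libraries left out, Ephb2 was at 0.0550 and Unc5b at 1.20.

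With the longest transcript as the length, cortex shares were 39.3% for Efnb3, 54.7% for Ephb6, 56.7% for Slit3 and 49.8% for Unc5a, and Unc5a held 50.6% in dentate gyrus. Other shares that moved by over 1.5 times were those of Epha5 (7.04% in dentate gyrus, 19.2% in cortex), Slit2 (8.11% in dentate gyrus, 31.6% in cortex) and Robo4 (0.482% in dentate gyrus, 0.0147% in cortex), besides Unc5c. The Robo sum was 19.0 CPM per kb in dentate gyrus and 28.2 CPM per kb in cortex, and the netrin-G sum 46.4 and 29.6 CPM per kb in the same tissues. The overlap count cannot differ between tests on the same levels and was not recomputed for them. The causes were not tested. With 1 cortex library left, its spread was taken from dentate gyrus. Low counts kept Epha2 and Ephb4 out of the test. The summed counts of Epha1, Epha8, Efna4 and Robo4 differed between tissues beyond counting error, but none passed the edgeR test. These genes passed the filter on low counts through 1 tissue alone, so a difference was built into their entry. Counting error also leaves out the spread between replicates: for Epha1, 71 of 88 dentate gyrus counts came from replicate 1.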
